A study of Rattus norvegicus with 4 samples.

Results

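The Rab genes encode the largest family of small GTPases and were followed here in neuron cultures from the cortex of rats at embryonic day 18, treated with the solvent DMSO or with topotecan. A gene was counted as a member when its symbol was Rab followed by a number, with at most 1 letter and 1 digit after it, and when its summed count over the 4 libraries was 40 or more. This held for 50 of the 53 genes with such a symbol, out of 21648 gene identifiers in the table. The nearest genes inside the limit were Rab38, Rab43 and Rab20, with summed counts of 64, 65 and 117. Those outside were Rab19, Rab44 and Rab25, with 15, 10 and 5. Topotecan inhibits topoisomerase I, which releases the twist that transcription puts into DNA, and per the series' design text its use here was aimed at long genes. Both groups were the same commercially supplied cortex cells, in the same media, and differed only in the agent. The labels give no strain, dose, exposure time or statement that the 2 libraries of a group came from separate cultures. The p-values therefore measure the spread between these libraries, which may be technical.

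A Rab protein works as a switch on a membrane. Bound to GTP it recruits effectors such as tethers, motors and adaptors, and after hydrolysis of GTP it is pulled back into the cytosol by a GDP dissociation inhibitor. Exchange factors turn the switch on, GTPase-activating proteins turn it off, and a lipid tail added by a prenyl transferase, with the help of an escort protein, anchors it. Different Rabs mark different compartments, so the set that a neuron makes covers the Golgi, endosomes, lysosomes and synaptic vesicles.

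The libraries held between 22957786 and 31181382 gene counts, of which between 173023 and 227484 fell on the 50 Rab genes. Neuronal markers were abundant in all libraries, with a summed level of 21950 and 19800 CPM (counts scaled to library size) in DMSO and 24300 and 25680 CPM in topotecan over the 11 markers with a row. In this list 3 genes fell and 3 rose. Glial markers were also present in DMSO. The 12 astrocyte markers summed to 5612 and 5730 CPM in DMSO and to 538 and 580 CPM in topotecan. The 12 oligodendrocyte lineage markers went from 4059 and 4367 to 136 and 123 CPM, and the 9 radial glia and progenitor markers from 363 and 342 to 12.5 and 11.9 CPM. All tested members of the astrocyte and oligodendrocyte lists fell, as did 6 of 7 tested progenitor markers. Microglial markers were near 0 in all libraries (at most 0.942 CPM summed over 10 genes), and 7 of the 10 were at 0 in both topotecan libraries. The 7 endothelial markers went from 3.34 and 3.21 to 2.02 and 1.94 CPM, with Kdr called lower (1 of 2 tested). The 8 fibroblast and mural markers went from 8.27 and 9.04 to 3.65 and 4.72 CPM, with Pdgfrb and Postn called lower and Lum higher (3 of 3 tested).

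Most Rab genes were not called under topotecan, 6 fell by 2-fold or more, 2 fell by less, and 11 rose by less than 2-fold. The Rab genes together took 7624 and 7410 CPM in the DMSO libraries and 7422 and 7510 CPM in the topotecan libraries, so the summed level overlapped between the groups. Of the 50 genes, all of which passed the low-count filter, 8 (16%) fell and 11 (22%) rose (adjusted p under 0.05 over all genes, edgeR's quasi-likelihood F-test). Over all 12162 genes tested the shares were 23.5% lower and 16.2% higher (39.7% in either direction), so neither count of Rab genes lay far from the background. The median log2 fold change was 0.08 for Rab genes and -0.01 for all genes. The 6 falls of 2-fold or more were those of Rab7b, Rab32, Rab13, Rab38, Rab31 and Rab34 (6 of 50 members), and 13.2% of all genes fell by that much. No Rab gene rose by 2-fold, a size reached by 1.27% of all genes. Both topotecan libraries lay below both DMSO libraries for 15 Rab genes (36.9% of all genes) and above them for 21 (33.7% of all genes).

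The falls and the rises differed in how many alternatives kept their calls, which was not counted over all genes. They also differed in size, as 6 of the 8 falls and none of the rises reached 2-fold. In 1 alternative, libraries were scaled to the summed counts of 24 neuronal genes instead of to all genes. Abundant genes weigh most in such a sum. With the scaling over all genes, the 11 neuronal markers had a median log2 fold change of 0.04, with 3 called lower and 3 higher. Scaled to the sum, the median of all genes moved from -0.01 to -0.24 on the log2 scale. That of the Rab genes moved from 0.08 to -0.15. The calls then became 16 lower and 1 higher of 50 Rab genes. Over all 12162 genes tested they became 4112 lower and 476 higher, so the calls of both moved the same way. Rab33a was the rise that was still called. This scaling lowered the value of every Rab gene, so it could weaken a rise but was no test of the falls. Leaving out either topotecan library also lowered the number of Rab rises, and it lowered the number of rises over all genes as well. Of the 8 falls, 7 were called under all 10 alternatives run, and Rab38 was the exception. The rises below are therefore changes relative to the bulk of the genes, and most of them depend on that reference.

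**Figure D1:**
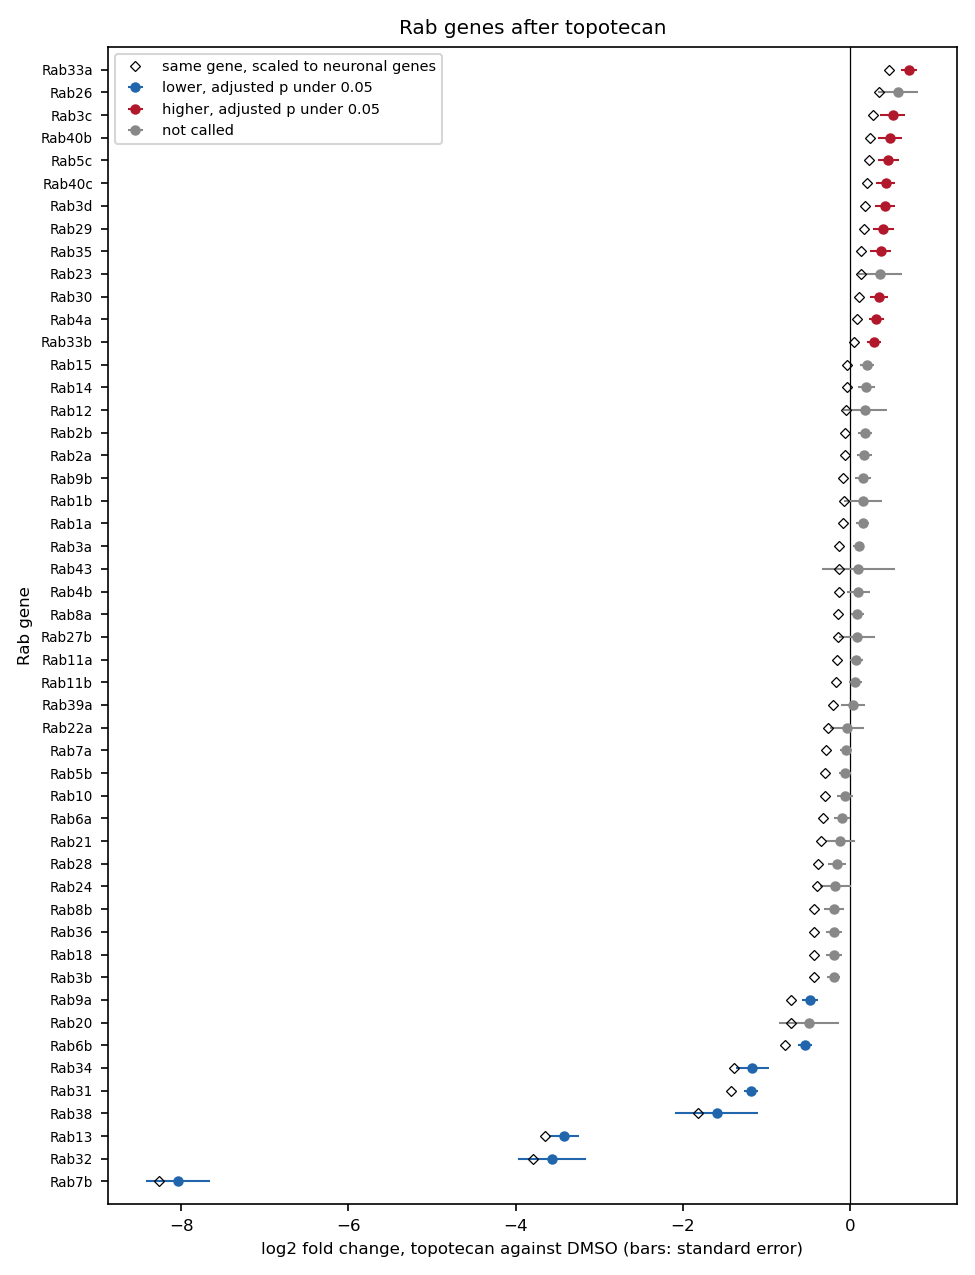
Log2 fold change (horizontal axis, topotecan against DMSO) of each of the 50 Rab genes (vertical axis). Filled points with standard error bars come from the scaling over all genes, and open diamonds show the same gene after scaling to 24 neuronal genes. The filled points run from -8.03 for Rab7b to 0.70 for Rab33a, with 31 genes not called, and the diamonds lie to the left of the points throughout.

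Rab7b and Rab32, the members with the lowest log2 fold changes, belong to the Rabs of late endosomes, lysosomes and related organelles. Of these 9 genes 4 fell (44.4%, all genes 23.5%) and 1 rose (11.1%, all genes 16.2%), and the group's median was -0.18 on the log2 scale. Rab7b, which acts in transport from late endosomes to the trans-Golgi network, had 15.5 and 15.2 CPM in the DMSO libraries and 0 and 0.119 CPM in the topotecan libraries. In counts this was 427 and 354 against 0 and 3, so the gene was close to absent from both topotecan libraries. The ratio of the summed counts was 286, with an exact 95% binomial interval from 97.4 to 1390 that covers counting error only, and the edgeR adjusted p was 9.87e-10. Without topotecan replicate 2 no count remained in the topotecan group, so the fitted log2 fold change of -11.70 in that setting has no meaning as a size. Rab32, a Rab of lysosome-related organelles, had 2.54 and 2.23 CPM in DMSO and 0.163 and 0.238 CPM in topotecan. The groups did not overlap, and the ratio of summed counts (122 against 11) was 12.2 with an interval from 6.56 to 25.0 (edgeR adjusted p = 9.34e-06). Rab38, the close relative of Rab32 with overlapping functions, was the least abundant member that passed. Its counts were 26 and 21 with DMSO against 13 and 4 with topotecan, a log2 fold change of -1.60 (SE 0.49, edgeR adjusted p = 0.0192). The 2 topotecan libraries differed from each other more than the DMSO libraries did, and the adjusted p was 0.172 without topotecan replicate 2, 0.0681 without DMSO replicate 1 and 0.138 with DESeq2.

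These falls were measured in bulk RNA, where fewer cells of a type and less RNA per cell cannot be told apart. The summed astrocyte, oligodendrocyte, progenitor, endothelial, and fibroblast and mural markers given above were lower in the same topotecan libraries, and their part in the falls of Rab7b, Rab32, Rab13, Rab38, Rab31 and Rab34 was not tested. For microglia, another cell type rich in endosomes and lysosomes, 6 of the 10 markers with a row, among them C1qa, Cx3cr1 and Aif1, were at 0 counts in all 4 libraries. P2ry12 had 6 counts in each DMSO library and 0 in each topotecan library, and Csf1r, Cd68 and Ptprc had between 0 and 13 counts. None of these markers passed the low-count filter, and their part in the falls was not tested.

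The other members of the late endosomal and lysosomal group included a fall, a rise and 4 genes that were not called. Rab7a, the main Rab of late endosomes and lysosomes, had 737 and 739 CPM in DMSO and 726 and 696 CPM in topotecan. Its log2 fold change was -0.05 with a 95% interval from -0.21 to 0.10, so a change as large as that of Rab7b lies far outside the interval. Scaled to neuronal genes it was called lower, at -0.29 (edgeR adjusted p = 0.0306). Rab9a, which returns mannose 6-phosphate receptors from late endosomes to the Golgi, fell from 66.0 and 70.0 to 48.2 and 49.6 CPM (log2 fold change -0.48, SE 0.10, edgeR adjusted p = 0.00145). All its topotecan values lay below its DMSO values. In the RefSeq annotation Rab9a overlaps Trappc2, which was not called (log2 fold change -0.13), and reads of the 2 genes could be shared. Rab9b had a log2 fold change of 0.15 and Rab12 one of 0.18, neither of them called. Rab24, linked to autophagy, was at -0.18 and not called. Rab29, which sits at the trans-Golgi network and lysosomes and is a partner of the kinase LRRK2, rose from 17.6 and 19.7 to 24.6 and 24.3 CPM (log2 fold change 0.40, SE 0.12, edgeR adjusted p = 0.0212). It was not called by edgeR without topotecan replicate 1 (adjusted p = 0.118) or topotecan replicate 2 (0.0953).

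**Figure D2:**
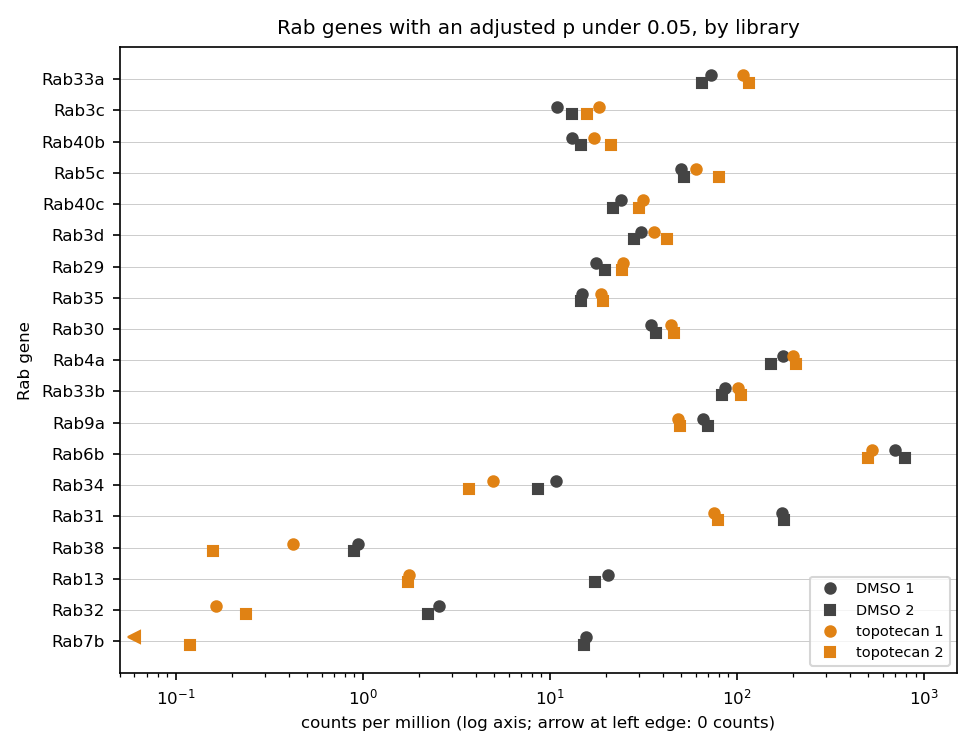
Level of the 19 called Rab genes in each library in CPM (horizontal log axis), with DMSO in grey and topotecan in orange, circles for replicate 1 and squares for replicate 2. The arrow at the left edge marks the topotecan library in which Rab7b had 0 counts. Topotecan and DMSO points do not overlap for any of these genes, and the gap is wide for Rab7b, Rab32 and Rab13 and narrow for the rises.

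Among the Rabs that serve the way from the trans-Golgi network to the plasma membrane and the cilium, Rab13 fell and the other 5 were not called. The share of falls was 16.7%, while over all genes 23.5% fell and 16.2% rose. Rab13, known from the assembly of tight junctions and from transport to the leading edge of migrating cells, had 20.4 and 17.4 CPM in DMSO and 1.76 and 1.75 CPM in topotecan. Both topotecan libraries were thus about equally low, at 54 and 44 counts against 562 and 405. The ratio of summed counts was 10.8 (interval from 8.79 to 13.5), and the log2 fold change was -3.42 with an SE of 0.18 (edgeR adjusted p = 3.3e-09). Rab8a and Rab10, its relatives in exocytic transport, gave another picture. Rab8a had 177 and 164 CPM in DMSO and 183 and 180.0 CPM in topotecan, a log2 fold change of 0.09 (95% interval -0.09 to 0.26). Rab8b, at 41.6 and 51.0 against 41.7 and 39.2 CPM, was at -0.19 (interval -0.45 to 0.06). Rab10, which also delivers membrane to growing axons, had 106 and 118 CPM in DMSO and 111 and 103 CPM in topotecan (interval -0.26 to 0.14). The values of Rab8b and Rab10 overlapped between the groups. Rab8b was called lower by edgeR after scaling to neuronal genes (-0.43, adjusted p = 0.0205) and without DMSO replicate 1 (0.0119). Rab23, a regulator of Hedgehog signalling, and Rab28, a Rab of cilia, were at 0.36 and -0.16 and were not called, though Rab28 was called lower after scaling to neuronal genes (-0.39, edgeR adjusted p = 0.0253).

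The upstream sequences of the 3 deepest falls and of Rab3a, the synaptic vesicle Rab that was not called, are shown to let these promoters be compared. Each runs 5′ to 3′ on the strand of the gene over the 250 bases before the annotated start in the RefSeq annotation of GRCr8. Capitals mark matches to the GC box GGGCGG, the CCAAT box CCAAT, the TATA box TATAAA and the E-box CACGTG on either strand.
Rab7b, chr13:45673195-45673444 (+): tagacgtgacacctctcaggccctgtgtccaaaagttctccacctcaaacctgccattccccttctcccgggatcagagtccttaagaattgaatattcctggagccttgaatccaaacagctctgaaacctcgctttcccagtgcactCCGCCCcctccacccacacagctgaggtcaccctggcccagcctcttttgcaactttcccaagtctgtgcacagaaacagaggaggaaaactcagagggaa
Rab32, chr1:6781259-6781508 (-): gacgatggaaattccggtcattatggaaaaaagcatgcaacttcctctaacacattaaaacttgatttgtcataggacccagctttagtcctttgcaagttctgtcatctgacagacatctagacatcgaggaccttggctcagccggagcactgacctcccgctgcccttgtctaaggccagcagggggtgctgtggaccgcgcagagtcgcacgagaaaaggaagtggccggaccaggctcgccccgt
Rab13, chr2:177972720-177972969 (+): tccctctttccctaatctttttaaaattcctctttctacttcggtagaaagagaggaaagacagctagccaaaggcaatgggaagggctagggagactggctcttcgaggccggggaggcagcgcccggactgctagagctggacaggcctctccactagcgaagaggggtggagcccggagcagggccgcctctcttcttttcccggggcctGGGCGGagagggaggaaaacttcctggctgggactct
Rab3a, chr16:18722274-18722523 (-): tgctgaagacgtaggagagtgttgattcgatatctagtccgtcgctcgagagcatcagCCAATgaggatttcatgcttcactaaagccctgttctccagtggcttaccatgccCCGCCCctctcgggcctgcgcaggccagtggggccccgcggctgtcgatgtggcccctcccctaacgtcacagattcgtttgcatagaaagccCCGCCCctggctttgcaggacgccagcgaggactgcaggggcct
The Rab7b window held 4 CpG dinucleotides and a GC box starting 101 bases before the start. The Rab32 window held 12 CpG and no match. The Rab13 window held 10 CpG and a GC box 37 bases before the start, and the Rab3a window 16 CpG, GC boxes at 137 and 44 bases and a CCAAT box at 192 bases before it. A promoter was found for 40 of the 50 Rab genes. A GC box was present in 33 of them (82.5%), in 56.1% of the promoters of 10820 genes tested and in 30.5% of all 33469 promoters in the table. None of the 40 Rab windows held TATAAA, against 6.46% for genes tested and 12.9% of all promoters. The CCAAT box was in 35.0% of Rab windows and 35.1% of those of genes tested, and the E-box in 5% and 8.12%. The median number of CpG was 17 in Rab genes and 16 in genes tested. GC boxes were present in 5 of the 7 matched Rab genes that fell, 9 of the 10 that rose and 19 of the 23 that were not called. A match describes the letters only.

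In the early endosomal group of 6 genes Rab31 fell and Rab5c rose (16.7% each, all genes 23.5% lower and 16.2% higher). Rab31, which carries cargo between the trans-Golgi network and endosomes, had 174 and 178 CPM in DMSO and 75.7 and 79.3 CPM in topotecan. This is the most precisely measured of the 2-fold falls, with a log2 fold change of -1.18 (SE 0.08, edgeR adjusted p = 7.79e-08) and replicates close together in both groups. Its nearest relative Rab22a was scarce, between 3.43 and 4.21 CPM in all libraries, and was at -0.04 (95% interval -0.48 to 0.41). Rab5c, an isoform of the Rab that drives fusion of early endosomes, rose from 50.4 and 52.1 to 60.6 and 80.3 CPM (log2 fold change 0.46, SE 0.12, edgeR adjusted p = 0.00945). Without topotecan replicate 2, its higher library, the value was 0.25 and the adjusted p 0.262. Rab5b had 384 CPM in both DMSO libraries and 364 and 372 CPM in topotecan, and was at -0.06 (interval -0.22 to 0.10), but it was called lower after scaling to neuronal genes (-0.30, edgeR adjusted p = 0.0277). Rab21, which traffics integrins, and Rab20 were at -0.12 and -0.49 and were not called. Rab5a had no row under its symbol and was not analysed here.

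None of the 7 Rabs of recycling endosomes fell and 2 rose (28.6%), against 23.5% lower and 16.2% higher over all genes. All 7 had log2 fold changes above 0, from 0.06 to 0.36, with a median of 0.19. Under scaling to neuronal genes 5 of them (Rab11a, Rab11b, Rab14, Rab15 and Rab4b) turned to values below 0. Rab4a, which serves fast return of receptors to the surface, rose from 175 and 153 to 200 and 208 CPM (log2 fold change 0.31, SE 0.09, edgeR adjusted p = 0.0116), and was not called without topotecan replicate 2 (0.0896). Rab35, which also works in fast recycling and in neurite outgrowth, rose from 14.8 and 14.7 to 18.8 and 19.2 CPM (0.36, SE 0.13, adjusted p = 0.0358 by edgeR), and was not called with DESeq2 (0.0705), with a replicate block (0.062), without topotecan replicate 1 (0.142) or without topotecan replicate 2 (0.184). The slow recycling Rabs Rab11a and Rab11b were not called, and their difference from Rab4a and Rab35 was not tested. Rab11a had 313 and 295 CPM in DMSO and 312 and 327 CPM in topotecan, and Rab11b 1046 and 969 CPM in DMSO and 1017 and 1086 CPM in topotecan. The groups overlapped for both, and the 95% intervals of their log2 fold changes ran from -0.09 to 0.24 and from -0.10 to 0.22. Rab14 had 52.9 and 47.9 CPM in DMSO and 59.7 and 55.4 CPM in topotecan and was not called (0.19, interval -0.03 to 0.41). Rab15 and Rab4b were at 0.20 and 0.10, also not called. Leaving out 1 DMSO library brought calls by edgeR for Rab14 (adjusted p = 0.027) and Rab4b (0.00288), both without replicate 1, and for Rab15 (0.0351) without replicate 2.

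The next group held 14 Rabs of the Golgi and of transport between the endoplasmic reticulum and the Golgi. Of these, 2 (14.3%, all genes 23.5%) fell and 3 (21.4%, all genes 16.2%) rose, with a median of 0.12. Rab34, which takes part in the placing of lysosomes near the Golgi and in the making of cilia, fell from 10.8 and 8.65 to 4.93 and 3.69 CPM (log2 fold change -1.17, SE 0.19, edgeR adjusted p = 3.04e-04). Rab6b, the form of the Golgi Rab6 that is enriched in brain, fell from 699.7 and 794 to 524 and 503 CPM (-0.54, SE 0.08, adjusted p = 1.16e-04 by edgeR). Its topotecan values lay below both DMSO values by more than the spread of either group. Rab6a, the widely expressed form, had 94.2 and 99.8 CPM in DMSO and 97.0 and 84.4 CPM in topotecan, which overlapped (-0.10, 95% interval -0.30 to 0.11). After scaling to neuronal genes Rab6a was called lower too (-0.33, edgeR adjusted p = 0.0398). In the RefSeq annotation Rab6a overlaps 3 genes, among them Mrpl48 and Plekhb1, and Rab6b overlaps 1, so reads could be shared.

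Rab33a, a neuronal Rab of vesicles that supply the growing axon, had the largest rise of the family, from 72.7 and 64.6 to 107 and 116 CPM. Its log2 fold change was 0.70 (SE 0.10, edgeR adjusted p = 5.8e-05), and after scaling to neuronal genes it was 0.47 (edgeR adjusted p = 0.00235). Rab33b, a Golgi Rab that binds the autophagy protein ATG16L1, rose from 86.4 and 82.7 to 102 and 105 CPM (0.28, SE 0.09, adjusted p = 0.019 by edgeR). Rab30, a Golgi Rab, rose from 34.5 and 37.0 to 44.5 and 46.2 CPM (0.34, SE 0.10, adjusted p = 0.0188 by edgeR). Neither was called by edgeR without topotecan replicate 1 (adjusted p = 0.103 for Rab33b and 0.0869 for Rab30) or without topotecan replicate 2 (0.173 and 0.154). The Rabs that act between the endoplasmic reticulum and the Golgi were not called. Rab1a had 151 CPM in both DMSO libraries and 173 and 162 CPM in topotecan (interval -0.02 to 0.32), and Rab2a 64.3 and 65.3 against 72.6 and 73.3 CPM (interval -0.03 to 0.37). The remaining genes of the whole group, Rab1b, Rab2b, Rab18, Rab36, Rab39a and Rab43, lay between -0.19 and 0.17 and were not called. Of these, Rab18 and Rab36 were called lower by edgeR after scaling to neuronal genes (both -0.43, adjusted p = 0.00721 and 0.00988), and Rab18 also without DMSO replicate 1 (0.0398). Rab1b had 71 to 118 counts per library and stands under 3 Entrez numbers in the table, so its reads may be shared with near-identical copies. Rab39b had no row under its symbol and was not analysed here.

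The Rabs of regulated exocytosis, which dock synaptic and secretory vesicles, included 2 rises and no fall among 6 genes (median 0.26). The rises made up 33.3%, while over all genes 16.2% rose and 23.5% fell. The group was not tested as a set. Rab3a, the main Rab of synaptic vesicles, had 2066 and 1902 CPM in DMSO and 2119 and 2134 CPM in topotecan. The topotecan values lay just above the DMSO values, and the log2 fold change was 0.10 (95% interval -0.05 to 0.25, not called). In the annotation Rab3a overlaps Mpv17l2, which held 227 to 429 counts per library against 44408 to 64945 for Rab3a. Rab3b had 285 and 263 CPM in DMSO and 245 and 233 CPM in topotecan and was at -0.20 (edgeR adjusted p = 0.0647). After scaling to neuronal genes it was called lower, at -0.43 (edgeR adjusted p = 0.00225), as it was without DMSO replicate 2 (0.00934). Rab3c, another synaptic vesicle Rab, rose from 10.9 and 13.1 to 18.2 and 15.8 CPM (0.51, SE 0.15, edgeR adjusted p = 0.0145). Rab3d, best known from secretory granules of gland cells, rose from 30.5 and 28.2 to 36.0 and 42.3 CPM (0.41, SE 0.12, edgeR adjusted p = 0.0136). By edgeR, Rab3c was not called without topotecan replicate 1 (adjusted p = 0.136), nor Rab3d without topotecan replicate 2 (0.213). Rab26, which links synaptic vesicles to autophagy, had 1.81 and 2.06 CPM in DMSO and 2.74 and 3.01 CPM in topotecan, a separation that did not pass (edgeR adjusted p = 0.0775). Rab27b, a Rab of secretory vesicles, had 4.82 and 5.14 CPM in DMSO and 6.36 and 4.08 CPM in topotecan, where the topotecan libraries lay on either side of the DMSO libraries. Rab27a and Rab37 had no row under their symbols and were not analysed here.

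Rab40b and Rab40c, which carry a SOCS box and recruit a ubiquitin ligase, both rose. Rab40b went from 13.0 and 14.6 to 17.2 and 21.3 CPM (log2 fold change 0.47, SE 0.15, edgeR adjusted p = 0.0194) and Rab40c from 23.8 and 21.8 to 31.6 and 29.8 CPM (0.42, SE 0.12, edgeR adjusted p = 0.0108). By edgeR, Rab40b was not called without topotecan replicate 2 (adjusted p = 0.252), nor Rab40c without topotecan replicate 1 (0.102). Rab40c overlaps Mettl26, which was not called (-0.04).

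Ratios of counts between Rab genes with the same number do not depend on how libraries are scaled and were compared within each library for 14 pairs, chosen after the values were seen. With 2 libraries against 2, an exact 2-sided permutation test cannot go below p = 0.333, so no pair can pass a threshold. Only the change of a ratio is read, since a ratio also reflects the lengths of the 2 genes. Rab6b to Rab6a went from 7.43 and 7.96 with DMSO to 5.40 and 5.96 with topotecan. Rab9b to Rab9a went from 0.820 and 0.846 to 1.25 and 1.33, a 1.55-fold rise of the ratio. Rab5c to Rab5b went from 0.131 and 0.136 to 0.167 and 0.216. Rab33b to Rab33a went from 1.19 and 1.28 to 0.949 and 0.898. The groups did not overlap in these 4 pairs, nor in 5 others of the 14. Among the 5 was Rab8b to Rab8a, which went from 0.234 and 0.311 to 0.228 and 0.218. A lack of overlap is common in these libraries. For single genes, both topotecan libraries lay below both DMSO libraries in 36.9% of all genes and above them in 33.7%. Within the synaptic vesicle Rabs, Rab3b to Rab3a was 0.138 in both DMSO libraries and 0.116 and 0.109 in topotecan, while Rab3d to Rab3a went from 0.0148 in both to 0.0170 and 0.0198. Rab3c to Rab3a went from 0.00527 and 0.00687 to 0.00858 and 0.00740. The groups of the Rab3c ratio were close, with 0.00687 in DMSO replicate 2 and 0.00740 in topotecan replicate 2. By contrast, Rab11b to Rab11a lay between 3.26 and 3.35 in all 4 libraries and Rab2b to Rab2a between 1.48 and 1.54, and both pairs overlapped between the groups.

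**Figure D3:**
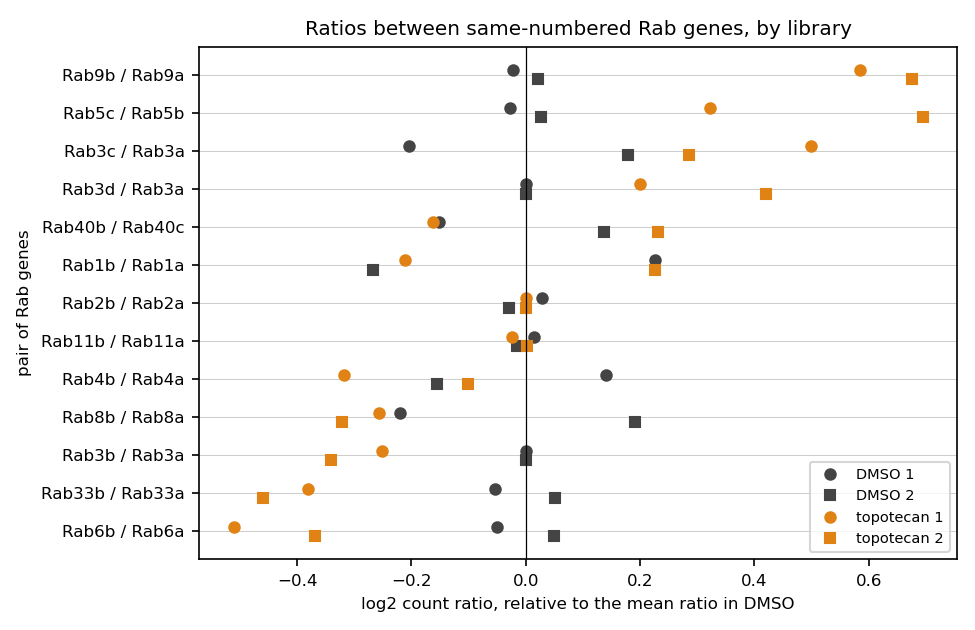
Log2 ratio of counts between same-numbered Rab genes relative to the mean ratio in DMSO (horizontal axis) for each of 13 pairs (vertical axis), with DMSO in grey, topotecan in orange, circles for replicate 1 and squares for replicate 2. The pair Rab7b to Rab7a is left out because Rab7b had 0 counts in 1 library. Topotecan points lie apart from DMSO points for Rab9b, Rab5c, Rab6b and Rab33b against their partners, and together with them for Rab11b and Rab2b.

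Because topotecan was given to lower long genes, the Rab genes were also described by span, the distance from the start to the end of the gene in the RefSeq annotation of GRCr8. Rab genes were about as short as other genes, with a median span of 23.45 kb against 26 kb over all genes with a span. Their spans ran from 2.08 kb to 223 kb, and 34 of 50 spanned less than 30 kb, 13 spanned 30 to 100 kb and 3 spanned 100 kb or more. In the shortest class 5 Rab genes fell (14.7%, all genes of that class 17.7%) and 8 rose (23.5%, all genes 22.6%), and the median was 0.12 (log2, all genes 0.10). In the middle class 2 fell and 2 rose (15.4% each, all genes 24.6% and 11%), with a median of -0.10 (all genes -0.07). The 3 long Rab genes went 3 ways. Rab31 (135 kb) fell, Rab27b (199 kb) was not called and Rab3c (223 kb), the longest, rose. Over all genes of 100 kb or more 43.6% fell and 6.06% rose. The 3 deepest falls were in short genes, at 26.4 kb for Rab7b, 14.8 kb for Rab32 and 5.14 kb for Rab13. Between span and fold change, Spearman's rho was -0.15 over the 50 Rab genes and -0.28 over 11775 genes with a span, across genes that are not independent of each other. The median span was 24.2 kb for the Rab genes that fell, 23.6 kb for those that rose and 23.3 kb for the rest.

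**Figure D4:**
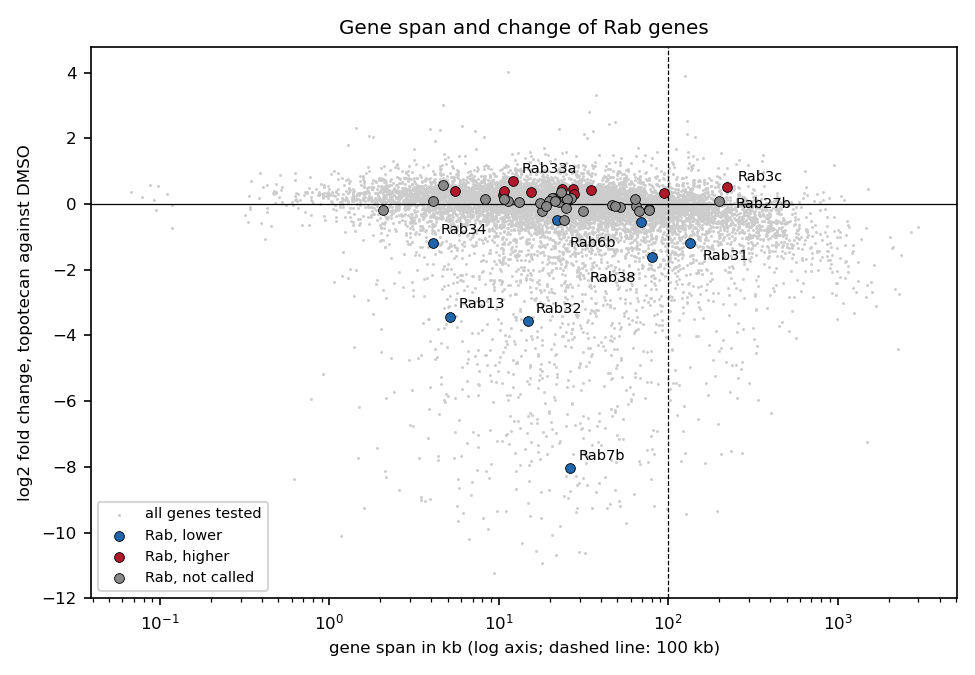
Log2 fold change (vertical axis) against gene span in kb (horizontal log axis) for all genes tested with a span (light grey) and for the 50 Rab genes (blue lower, red higher, dark grey not called). The dashed line marks 100 kb. Rab7b, Rab32 and Rab13 lie far below 0 at short spans, while Rab3c at 223 kb lies above 0.

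The genes that load, switch and read out Rab proteins were taken from 5 lists. Among the genes for GDP dissociation inhibitors, escort proteins and the prenyl transferase, 1 of 5 tested fell and 2 rose (median 0.08). The shares were 20% and 40%, against 23.5% and 16.2% of all genes. Gdi2, the widely expressed GDP dissociation inhibitor, had 966 and 938 CPM in DMSO and 992 and 953 CPM in topotecan, which overlapped, and was not called (0.03). Chm, which encodes an escort protein, fell from 20.6 and 25.7 to 13.2 and 13.96 CPM (log2 fold change -0.77, SE 0.14, edgeR adjusted p = 7.04e-04). Rabac1, which encodes a protein that binds prenylated Rabs, rose from 439.6 and 342 to 564 and 539.8 CPM (0.50, SE 0.10, edgeR adjusted p = 0.0015). Of the prenyl transferase subunits, Rabggtb rose from 125 and 129.9 to 162 and 149 CPM (0.29, edgeR adjusted p = 0.0152) but was not called without topotecan replicate 1 (0.213), and Rabggta, at 73.4 and 75.5 against 74.8 and 82.6 CPM, was not called.

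Of 35 exchange factors and their subunits tested, 9 (25.7%) fell and 4 (11.4%) rose, with a median of -0.15. Over all genes 23.5% fell and 16.2% rose, so the share of falls lay near the background. St5, also named Dennd2b, encodes an exchange factor for Rab13 and fell from 8.92 and 7.58 to 1.47 and 1.39 CPM (log2 fold change -2.53, SE 0.21, edgeR adjusted p = 4.51e-07). Trappc9, a subunit of a TRAPP tethering complex that spans 477 kb, fell from 157 and 151 to 77.8 and 84.1 CPM (-0.93, SE 0.09). Rin2, an exchange factor for Rab5, fell by 0.71 on the log2 scale. Mon1a, part of the exchange factor for Rab7, had 19.1 and 10.7 CPM in DMSO and 22.6 and 22.8 CPM in topotecan and was called higher (0.60, edgeR adjusted p = 0.0294), but not without DMSO replicate 2 (adjusted p = 0.145). Rab3ip, an exchange factor for Rab8, was at 0.50 (edgeR adjusted p = 0.0438), and not called with the replicate block (0.0585), with DESeq2 (0.105), without DMSO replicate 1 (0.0794) or without topotecan replicate 1 (0.465).

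Of 34 genes tested in the list of GTPase-activating proteins, 8 (23.5%) fell and 2 (5.88%) rose, with a median of 0.02. A place in this list does not show that a gene's product acts on a Rab. The share of falls equalled that of all genes (23.5%), and 16.2% of all genes rose. Tbc1d5, which acts on Rab7 and spans 517 kb, fell from 23.6 and 22.3 to 8.94 and 9.36 CPM (log2 fold change -1.33, SE 0.13, edgeR adjusted p = 2.94e-06). Rabgap1l of the same list, named here after its values were seen, spans 596 kb and was at 0.08, not called. Tbc1d31 and Tbc1d32, both linked to cilia, were called lower at -0.98 and -0.62, the latter not with DESeq2 (adjusted p = 0.155), without DMSO replicate 2 (0.11) or without topotecan replicate 2 (0.244). Tbc1d14, a regulator of autophagy that binds Rab11, rose from 191 and 204 to 266 and 272 CPM (0.45, SE 0.08, edgeR adjusted p = 4.85e-04). Sgsm3 was called higher at 0.29, and not without topotecan replicate 2 (edgeR adjusted p = 0.136).

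Of 47 effectors 15 (31.9%, all genes 23.5%) fell and 1 (2.13%, all genes 16.2%) rose, with a median of -0.07. Appl2, an adaptor on early endosomes that spans 52.9 kb, had the deepest fall of the list. It went from 37.1 and 38.2 to 1.60 and 1.19 CPM (log2 fold change -4.74, SE 0.17, edgeR adjusted p = 5.45e-11). Acap2, which binds Rab35, fell from 8.09 and 9.81 to 2.97 and 1.94 CPM (-1.84, SE 0.22). Myo5b, a motor recruited by Rab11, fell from 107 and 113 to 41.04 and 37.6 CPM (-1.49, SE 0.10). The Rab3 effector gene Rims1, named here after its values were seen, spans 500 kb and was at -1.21 (SE 0.14), while Rph3a, another Rab3 effector also named after its values were seen, was at -0.02 and not called. Vps26a, a retromer subunit, was the rise, at 0.29 (edgeR adjusted p = 0.0449), and was not called with the replicate block (0.0517), without DMSO replicate 2 (0.137), without topotecan replicate 1 (0.266) or without topotecan replicate 2 (0.113). In the LRRK2 pathway list of 3 genes, Ppm1h, the phosphatase that acts on Rabs phosphorylated by LRRK2, fell from 26.6 and 29.3 to 17.5 and 22.9 CPM (-0.47, edgeR adjusted p = 0.0164), but was not called without topotecan replicate 1 (edgeR adjusted p = 0.272). Lrrk2 had 2.86 and 3.47 CPM in DMSO and 2.97 and 1.78 CPM in topotecan, which overlapped and was not called. After scaling to neuronal genes Rabac1 was the rise still called in these 5 lists. The lowered astrocyte and oligodendrocyte markers stood in the same libraries, and their part in the falls of St5, Appl2 and the others was not tested.

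**Figure D5:**
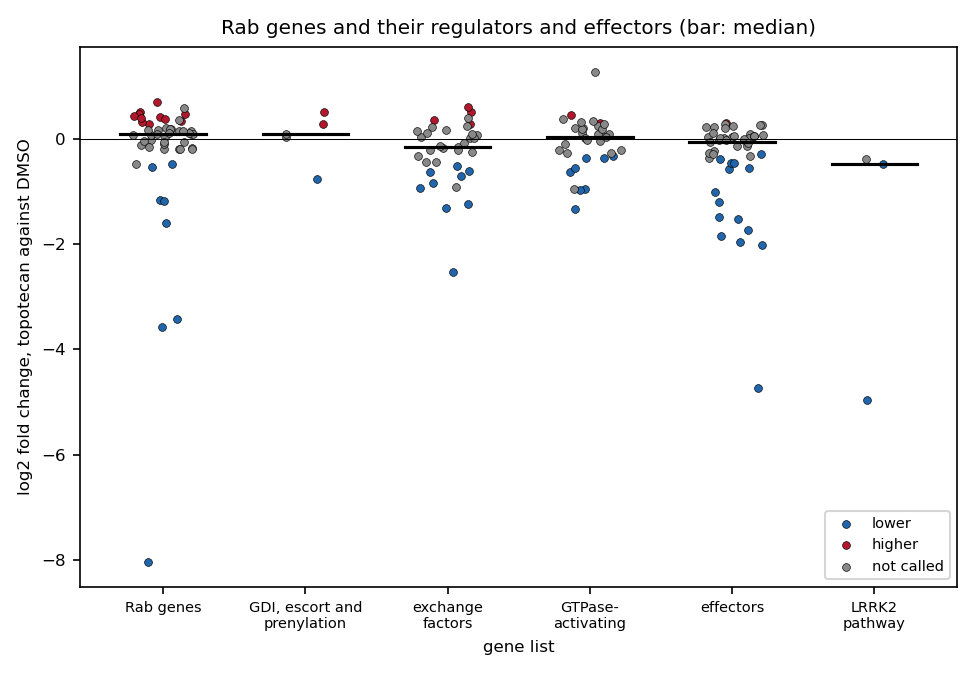
Log2 fold change (vertical axis, topotecan against DMSO) of the Rab genes and of the tested genes in each list of Rab regulators and effectors (horizontal axis), with 1 point per gene and a bar at the median. Medians lie between -0.15 and 0.08 except for the LRRK2 list of 3 genes, and the longest tails are downward, to -8.03 for Rab7b and -4.74 for Appl2. The lowest point of the LRRK2 list is Lrrk1, which was called lower and had 2 and 0 counts in topotecan, so its fitted value is no measure of size.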

How the data were processed

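RNA of 4 libraries, 2 per treatment, was sequenced. The authors deposited 1 table of raw counts per gene with Ensembl identifiers and symbols. STAR and edgeR are named in the submitters' processing notes. For their versions, the counter, strand setting, genome build and annotation, nothing is given in the sources used here. The labels' protocols name a small RNA library kit, though the counts cover protein-coding genes such as the Rab genes. Which kit was used could not be settled. The 22641 rows held 21648 identifiers. The 792 that stood on several rows had identical counts and were used once. No row lacked an identifier, 14 lacked a symbol, and no sample column was left unused. Replicates differed by more than sampling noise (chi-square per degree of freedom 13.0 in DMSO and 9.34 in topotecan).

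The test was edgeR 4.0.16 (R 4.3.3) quasi-likelihood with TMM, filterByExpr (minimum count 10, total 15) and treatment as the only term, on 12162 genes with 2 residual degrees of freedom. The Benjamini-Hochberg adjustment ran over all genes (threshold 0.05). Standard errors are the log2 fold change over the square root of F. CPM used TMM-scaled library sizes and are not corrected for gene length, so levels are not compared between genes. Intervals of log2 fold changes are 95% intervals from the fit. The code was tested on simulated data. Alternatives were DESeq2 1.42.0, RLE factors, no filter, limma 3.58.1 voom, a replicate block and leaving out each library. Another was scaling to the summed counts of 24 neuronal genes.

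RefSeq genes of GRCr8 were matched by Entrez number (49 Rab genes) or symbol (1). The members, the lists of roles, partners and markers, and the alternatives were chosen with earlier results of these data known. Genes with values per library were the called Rab genes, the exocytic Rabs, a fixed set of well-studied Rabs, and up to 3 falls and 2 rises of each partner list whose mean log2 CPM was 2 or more.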

Additional observations from a re-analysis of the deposited data

How the results depend on the processing

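Scaling to neuronal genes lowered every Rab value, so it was no test of the falls. How often calls were kept was not counted over all genes. Under the other alternatives the Rab falls were kept more often than the rises. They numbered between 7 and 9 in all alternatives but the scaling to neuronal genes (16), and 7 of the 8 were called in all 10 alternatives. The rises numbered 10 or 11 under the other tools, filters and factors, 1 after scaling to neuronal genes, and from 3 to 13 when a library was left out. Of the 11 rises, 1 was called in all 10 alternatives. The Rab median was -0.15 after scaling to neuronal genes and between 0.03 and 0.13 when a library was left out, and that of all genes was -0.24 after that scaling. Over all genes the rises were 476 after scaling to neuronal genes and 1208 to 2470 when a library was left out. The scaling also set the falls of exchange factors to 14, the rises of exchange factors, GTPase-activating proteins and effectors to 0, and those of the GDI and prenylation list to 1, and it moved the falls of GTPase-activating proteins to 12. DESeq2 called 5 falls of exchange factors and 5 of GTPase-activating proteins. When a library was left out, the ranges were 6 to 10 falls and 2 to 6 rises for exchange factors, 5 to 10 falls and 2 to 6 rises for GTPase-activating proteins, 0 to 4 rises for effectors, 1 to 2 rises for the GDI and prenylation list and 1 to 2 falls for the LRRK2 list.

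The replicate numbers are not stated to mark a shared culture. Deviations of same-numbered libraries correlated at -0.07 across genes. With a replicate block 8 Rab genes fell and 10 rose, Rab35 being the call lost, and effectors had 0 rises. The block called 2746 lower and 1822 higher genes in all.

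Log2 fold changes of 16 Rab genes that were not called turned below 0 after scaling to neuronal genes. They were -0.16 for Rab11a, -0.17 for Rab11b, -0.05 for Rab12, -0.04 for Rab14 and Rab15, -0.08 for Rab1a and Rab9b, -0.07 for Rab1b, -0.15 for Rab27b, -0.06 for Rab2a and Rab2b, -0.20 for Rab39a, -0.14 for Rab8a and -0.13 for Rab3a, Rab43 and Rab4b. Among partners, Gdi2 turned to -0.20 and Rabggta to -0.15. When 1 library was left out, the log2 fold changes ran from -0.03 to 0.35 for Rab12, -0.06 to 0.44 for Rab1b, -0.28 to 0.36 for Rab27b, -0.06 to 0.12 for Rab39a, -0.17 to 0.36 for Rab43 and -0.13 to 0.38 for Rab4b. Leaving out DMSO replicate 1 turned Rab22a to 0.14 and Rab39a to -0.04. Leaving out DMSO replicate 2 turned Rab10 to 0.02, Rab1b to -0.06 and Rab4b to -0.13. Leaving out topotecan replicate 1 turned Rab12 to -0.03, Rab27b to -0.28 and Rab39a to -0.06, and leaving out topotecan replicate 2 turned Rab1b to -0.02, Rab43 to -0.17 and Rab4b to -0.04. None of these reversed values was called by edgeR, and the cause was not tested. A fit without a library leaves 1 sample in a group, which is assumed to vary like the other group. For genes with few counts, such as Rab38, Rab43 and Rab20, depth limits the precision.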
